A study of Ovis aries with 19 samples.

Results

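The 9 genes studied here belong to the sarcomere, the repeating contractile unit of striated muscle, and were followed in muscle and liver of female sheep: TTN, NEB, ACTA1, ACTN2, MYOM1, MYOM2, MYOZ1, LDB3 and TCAP. They were chosen by name from 28524 gene identifiers, as genes of the giant filament proteins and of the structures that anchor them, and all 9 of 9 were found. MYOZ1 had no row under its symbol and was read through its NCBI gene number, 101119610, while 8 rows carried the symbol itself. The study compared sheep labelled as prenatally exposed to testosterone with sheep labelled as controls, and the samples used here were 5 control and 5 treated muscle libraries and 4 control and 5 treated liver libraries. All animals were female, each library came from a separate sheep within its tissue, and 9 sheep gave both tissues. The labels gave no dose, no window of exposure, no age at sampling and no name of the muscle, so slow and fast muscles cannot be told from them.

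In the sarcomere, thin filaments of actin are held at the Z-disc and thick filaments of myosin are held at the M-band. Titin, the product of TTN, runs from the Z-disc to the M-band as a molecular spring, and nebulin, the product of NEB, lies along the thin filament and helps to set its length. The Z-disc is built on alpha-actinin, which crosslinks actin filaments, while the myomesins crosslink thick filaments at the M-band. These proteins are made in large amounts in muscle fibres and are not parts of the normal machinery of hepatocytes.

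Library size ran from 8455563 to 14331578 reads in muscle and from 10236610 to 16046301 reads in liver. The levels below are normalized read counts, which are reads divided by a median-of-ratios factor of each library within its tissue. They were not divided by transcript length, so the level of 1 gene is compared between libraries but not with the level of another gene. A treatment effect is the difference of mean log2(normalized read count + 1), treated minus control, with its standard error from limma, and a gene was called when its p adjusted over all genes tested in the tissue was under 0.05. Muscle libraries held the defining transcripts of skeletal muscle, since the 17 skeletal muscle markers found summed to at least 1213872 in each of them, while the 8 hepatocyte markers summed to 150.8 at most. Of the 7 cardiac markers found, NPPA and MYL7 had no read in any muscle library. The 7 together summed to 56.9 to 316 in control and 93.4 to 532 in treated muscle. Within that sum ACTC1 was at 52.2 to 283 and 69.0 to 521.

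The first comparison asked whether the 9 transcripts differed in muscle after prenatal testosterone. All 9 had a lower mean in treated muscle, by 6.05% for MYOZ1 to 41.1% for MYOM1. None of the 9 was called at the adjusted threshold in limma, and 1 of 12966 genes tested, 0.00771%, was called in this comparison. MYOM1, the gene of myomesin 1, was the member whose treated libraries all lay below all control libraries, and 1.53% of all genes tested did the same. At an unadjusted p under 0.05, 1 member, MYOM1, was lower in treated muscle, against 7.0% of all genes tested. The median effect over the 9 members was -0.39 on the log2 scale, where the median over all genes tested was -0.01, and 51.6% of all genes had an effect below 0. The members share the same libraries, so their common direction is not a set of 9 independent observations.

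**Figure D1:**
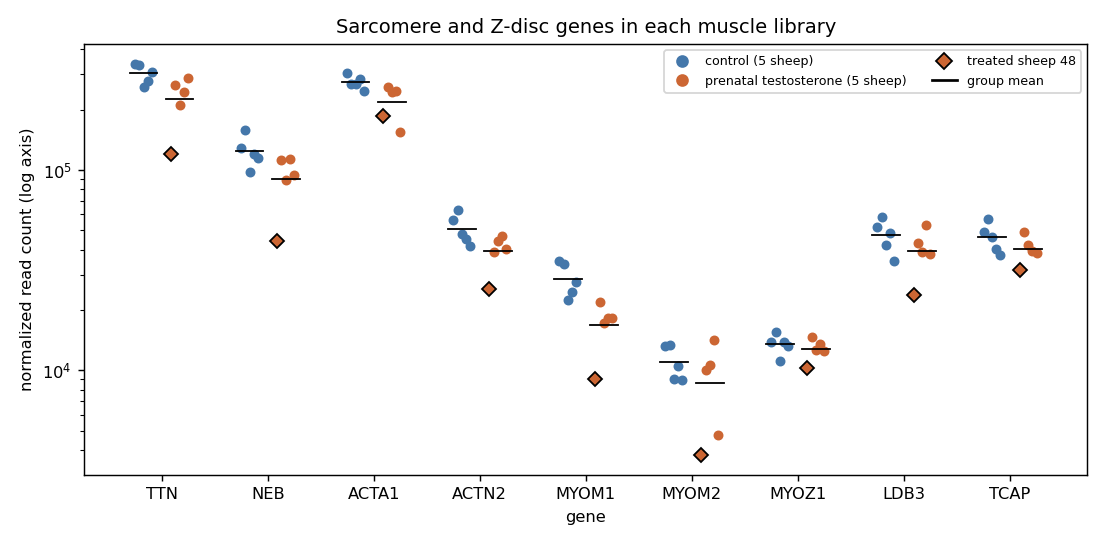
Normalized read count (log axis) of each of the 9 genes in the 10 muscle libraries, with control sheep in blue, treated sheep in orange and a horizontal bar at each group mean. The treated mean lies below the control mean for all 9 genes, the groups are fully apart for MYOM1 only, and treated sheep 48, drawn as a diamond, is the lowest treated library for each gene except ACTA1.

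Treated sheep 48 was low across these genes. It was the lowest of the 10 libraries for all members other than ACTA1, in which treated sheep 255 was lower. The summed level of the 17 skeletal muscle markers was 1213872 in that library, against 1608332 to 2154740 in the other treated libraries and 2032195 to 2410048 in the controls. Within the list, 15 of 17 markers had an effect below 0, with a median of -0.30. ACTA1, itself 1 of the 9 members, is on this list, at 154279 to 304192 in the muscle libraries. The sum and the count of markers are thus not fully separate from the members. In bulk tissue, fewer fibres and less of a transcript per fibre cannot be told apart, and the part of the summed muscle markers in the members' differences was not tested. The values without sheep 48 are therefore given beside the results. Without it, all 9 effects were still below 0, their median was -0.24, and none was called by limma.

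Among the giant filament genes, TTN had normalized read counts of 339834, 335652, 258298, 276780 and 306911 in control sheep 98, 131, 132, 179 and 201. The treated sheep 48, 63, 185, 233 and 255 had 120584, 266224, 211685, 244888 and 286849. All 5 treated libraries lay below the control mean and 3 of them lay below every control, but the groups overlapped. The TTN means were 303495 ± 35787 (SD, n = 5) in controls and 226046 ± 65182 (SD, n = 5) in treated muscle, 25.5% lower. The log2 effect was -0.48 ± 0.33 (SE), with a 95% interval from -1.18 to 0.22 and an adjusted p of 0.529 in limma. The effect without sheep 48 was -0.27.

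NEB also had a lower mean in treated muscle, by 26.9%. Its control values, in the same order of sheep, were 128535, 157775, 98200, 120276 and 114571, and its treated values were 44234, 112416, 88742, 113021 and 94248. Again 3 treated libraries were below every control, with sheep 48 the lowest. For NEB these were sheep 48, 185 and 255, whereas for TTN they were sheep 48, 185 and 233. The means were 123872 ± 21964 (SD, n = 5) and 90532 ± 28041 (SD, n = 5), and the log2 effect was -0.51 ± 0.29 (SE), interval -1.14 to 0.12, with an adjusted p of 0.453 in limma. Without sheep 48 the effect was -0.27. The quotient of both giants was close in both groups, with 2.48 ± 0.248 TTN reads per NEB read in controls and 2.54 ± 0.347 in treated muscle (SD, n = 5).

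ACTA1 encodes skeletal alpha-actin, the body of the thin filament along which nebulin lies. Its controls had 304192, 270155, 267661, 284959 and 249297, a narrow spread, and the treated sheep had 185052, 260858, 245831, 246983 and 154279. In this gene 4 of 5 treated libraries were below every control, and the lowest were sheep 255 and 48. The means were 275253 ± 20549 and 218601 ± 46356 (SD, n = 5), with a log2 effect of -0.36 ± 0.29 (SE) and an adjusted p of 0.603 in limma. It was -0.30 without sheep 48 and -0.24 without sheep 255. The TTN to ACTA1 quotient of reads was 0.965 to 1.24 in controls, and in treated muscle ran from 0.652 in sheep 48 to 1.86 in sheep 255, so that the treated libraries enclosed the control range.

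Both M-band genes had lower treated means, with different layouts of the libraries. MYOM1 encodes myomesin 1, which bridges thick filaments and binds the end of titin. Its control values were 34982, 34027, 22419, 24516 and 27520, and its treated values were 9094, 21841, 17166, 18181 and 18249. The highest treated value, in sheep 63, was just under the lowest control, sheep 132. The mean was 28693 ± 5617 in controls and 16906 ± 4714 in treated muscle (SD, n = 5), and the mean of the treated sheep other than 48 was 18859. The log2 effect was -0.80 ± 0.24 (SE), interval -1.31 to -0.29, with an adjusted p of 0.190 in limma. The exact two-sided permutation test of this single gene gave p = 0.00794, the smallest that 5 against 5 libraries can give, and this p is not adjusted for the other genes. Leaving out sheep 48 gave -0.59, interval -0.98 to -0.20, with an adjusted p of 0.303. DESeq2, run on the recovered reads as an alternative, called MYOM1 at an adjusted p of 0.0332, with 240 genes, 1.85% of those tested, called in all, against 1 by limma and 1 by edgeR. At an unadjusted p under 0.05, DESeq2 put 5 members lower, against 7.1% of all genes.

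MYOM2, the gene of the related myomesin 2 (M-protein), had 13247, 13304, 9047, 10523 and 8914 in controls and 3766, 10065, 10570, 14168 and 4767 in treated sheep. Sheep 233 had the highest value of all 10 libraries and sheep 48 and 255 the lowest 2, so the treated libraries spread beyond the controls on both sides. The treated SD was 4332 around a mean of 8667, against 2165 around 11007 in controls. The log2 effect was -0.49 ± 0.32 (SE), interval -1.18 to 0.19, adjusted p 0.504 in limma. It was -0.24 without sheep 48 and -0.32 without sheep 255. The MYOM1 to MYOM2 quotient of reads lay between 2.33 and 3.09 in controls and between 1.28, in sheep 233, and 3.83, in sheep 255, in treated muscle.

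**Figure D2:**
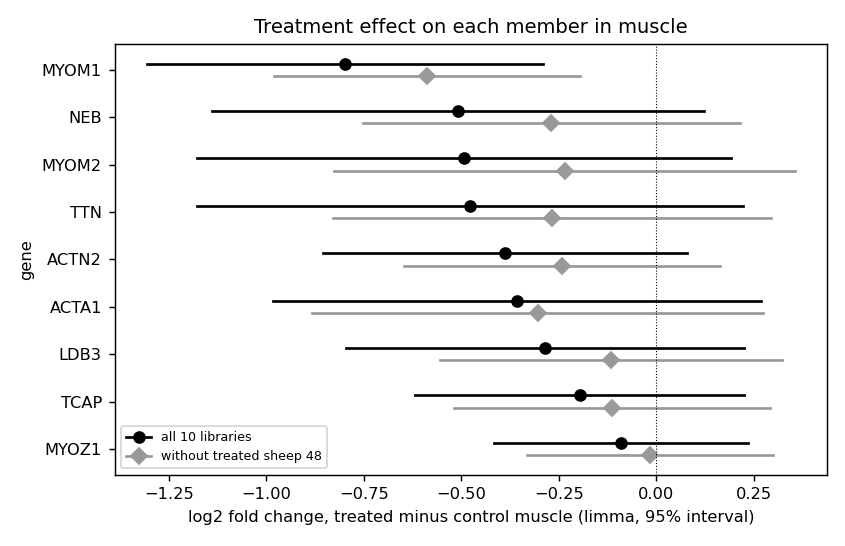
Treatment effect on each member in muscle (log2 difference, treated minus control, with 95% limma intervals), over all 10 libraries in black and without treated sheep 48 in grey. Each of the 9 estimates is below 0 in both fits, the interval of MYOM1 leaves out 0 in both, and the intervals of the other 8 genes include 0.

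Effects on the Z-disc genes ran from -0.39 for ACTN2 to -0.09 for MYOZ1. ACTN2, the gene of the alpha-actinin that crosslinks actin at the Z-disc, had 56155, 63271, 47908, 45381 and 41521 in controls and 25582, 38917, 44061, 46990 and 40428 in treated muscle. Treated sheep 48, 63 and 255 were below every control, and the remaining treated sheep were within the control range. The means were 50847 ± 8776 and 39196 ± 8236 (SD, n = 5), with a log2 effect of -0.39 ± 0.22 (SE), interval -0.86 to 0.08, adjusted p 0.439 in limma, and the effect without sheep 48 was -0.24.

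LDB3 encodes ZASP (Cypher), a PDZ and LIM domain protein that binds alpha-actinin. It had 51760, 58421, 42376, 48182 and 35129 in controls and 23769, 43248, 39038, 52935 and 37903 in treated muscle, and only sheep 48 was below every control. Its log2 effect was -0.29 ± 0.24 (SE), adjusted p 0.611 in limma, and -0.12 without sheep 48. TCAP encodes telethonin, which caps the Z-disc ends of titin molecules. It had 49194, 57029, 46505, 40421 and 37616 in controls against 31670, 49123, 42435, 39446 and 38490 in treated muscle, an effect of -0.20 ± 0.20 (SE), adjusted p 0.685 in limma, and -0.11 without sheep 48. The TCAP values of all treated sheep but 48 lay inside the control range.

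MYOZ1 encodes calsarcin-2, an alpha-actinin and calcineurin binding protein of fast fibres, and it had the effect nearest 0. Controls had 13848, 15593, 11089, 13886 and 13207, and treated sheep had 10227, 14672, 12622, 13514 and 12494. The means were 13525 ± 1624 and 12706 ± 1637 (SD, n = 5). The effect was -0.09 ± 0.15 (SE), and its interval from -0.42 to 0.23 leaves room for a modest difference in either direction. Without sheep 48 it was -0.016, and over all fits that left out 1 library it ran from -0.16 to -0.016. When libraries were scaled to their total reads instead, the median of all genes moved up by 0.20 and the effects of MYOZ1 and TCAP turned to 0.11 and 0.0080, while all 9 members stayed below the median of all genes.

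Exact two-sided permutation tests of the mean log2 difference were run for each of the 9 members singly and are not adjusted. Beside MYOM1, ACTA1 gave p = 0.0159 by this exact test, TTN 0.0397 and NEB 0.0476. ACTN2 gave an exact p of 0.0556, TCAP 0.230, LDB3 0.262, MYOM2 0.310 and MYOZ1 0.444. For TTN, NEB and ACTA1, 3 or 4 treated sheep lay below every control, and limma called none of these genes. Their p in limma before adjustment was 0.165 for TTN, 0.105 for NEB and 0.239 for ACTA1. The share of all genes with such an exact p, or with as many treated sheep below every control, was not computed.

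As a share of all reads in a library, the 9 genes together took 7.49% ± 0.385 in control muscle and 6.58% ± 0.857 in treated muscle (SD, n = 5). The 4 treated libraries other than sheep 48 averaged 6.94% ± 0.306 (SD, n = 4), and sheep 48 alone had 5.1%. Because the members are among the most abundant transcripts, the share was also set against the reads of all other genes. On that scale the means were 8.10% and 7.05%.

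How the members moved against each other was read from the quotients of their reads within a library, which do not depend on how libraries are scaled. All 36 pairs were compared between the groups by exact two-sided permutation tests with Benjamini-Hochberg adjustment over the 36, and none passed, the smallest adjusted p being 0.0571. That value belonged to pairs at 0.00794, the smallest exact p that 5 against 5 libraries can give. With 36 pairs, the adjusted test could pass a pair only if more pairs had lain at or near that smallest exact p. At an unadjusted exact p under 0.05 there were 8 pairs, 6 of them with MYOM1. Pairs with MYOM1 share its reads, so they are not separate observations and repeat its lower level in the same libraries. The share of such pairs among other genes was not computed. The groups did not overlap in 5 pairs, and 4 of these set MYOM1 against TTN, MYOZ1, LDB3 or TCAP, while the other one was NEB against MYOZ1. MYOM1 reads per TTN read were 0.103, 0.101, 0.0868, 0.0886 and 0.0897 in controls and 0.0754, 0.0820, 0.0811, 0.0742 and 0.0636 in treated sheep. Sheep 48, the lowest library for both genes, had a quotient in the middle of the treated ones, and the log2 difference of the TTN to MYOM1 quotient was 0.32 with and without it. The difference was -0.71 for MYOM1 over MYOZ1, -0.60 for MYOM1 over TCAP and -0.51 for MYOM1 over LDB3. Without sheep 48 these were -0.57, -0.47 and -0.47, in the same order. For NEB over MYOZ1 the difference was -0.42, and -0.25 without sheep 48.

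**Figure D3:**
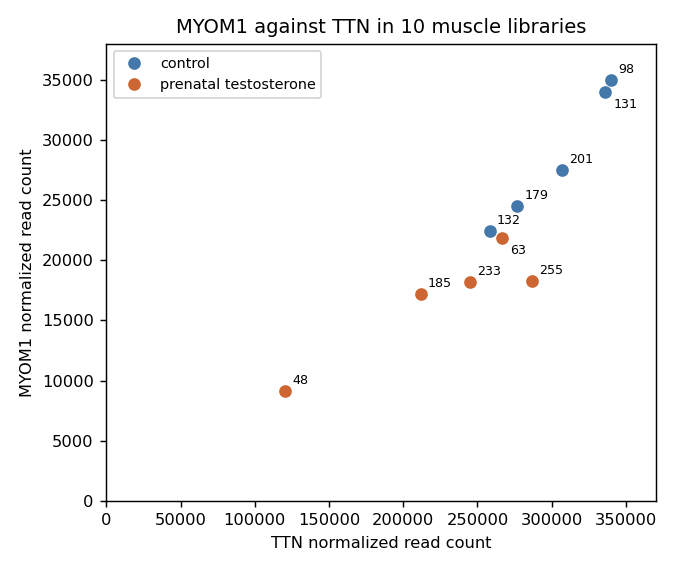
MYOM1 against TTN, both as normalized read counts, in the 10 muscle libraries, with each point labelled by sheep number. Both genes move together from sheep 48 at the lower left to sheep 98 and 131 at the upper right, and each treated library has fewer MYOM1 reads per TTN read (0.0636 to 0.0820) than any control (0.0868 to 0.103).

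Across the 10 muscle libraries the log2 levels of the other members were correlated with TTN, 8 relations in all, with permutation p adjusted over the 8. MYOM1 followed TTN most closely with NEB: Pearson r was 0.944 for both, with adjusted permutation p of 0.00048 for MYOM1 and 0.0027 for NEB. Spearman's rho was 0.915 for MYOM1 (adjusted permutation p 0.0047) and 0.806 for NEB (adjusted permutation p 0.0269). Leaving out the 2 libraries farthest from the TTN median, treated sheep 48 and 185, kept r at 0.873 for MYOM1 and lowered it to 0.651 for NEB. ACTN2 (r 0.845), LDB3 (0.788), MYOZ1 (0.758) and TCAP (0.691) had adjusted permutation p of 0.0183, 0.0280, 0.0218 and 0.0362, but their rho did not pass after adjustment, the smallest adjusted permutation p being 0.191, and without those 2 libraries r was 0.197 to 0.584. The r of these 4 relations thus depended in part on sheep 48 and 185, which were picked by their TTN level, as did that of NEB. MYOM2 (r 0.644, rho 0.224) and ACTA1 (r 0.472, rho 0.588) did not pass, with adjusted permutation p of 0.0629 and 0.164 for r and 0.532 and 0.191 for rho. Within groups, after each group mean was taken away, r with TTN was 0.943 for MYOM1, 0.919 for NEB and 0.165 for ACTA1. It was 0.770 for MYOZ1, 0.764 for ACTN2, 0.742 for LDB3, 0.602 for TCAP and 0.546 for MYOM2, with sheep 48 included.

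The genes most like TTN over the 10 muscle libraries, among 9910 other genes, were RYR1, the calcium release channel of the sarcoplasmic reticulum, at r = 0.957, ASB1, a SOCS box protein, at 0.955 and NFIX, a nuclear factor I transcription factor, at 0.955. For NEB they were PARVB, a parvin of focal adhesions, at 0.975, NFIX at 0.951 and USP4, a deubiquitinase, at 0.950. These values describe 10 libraries with 1 shared scaling, sheep 48 included.

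Other genes of the same structures were read from fixed lists. No gene of any list was called by limma in muscle. Of 31 other Z-disc genes, 19 had an effect below 0 with a median of -0.19, and the median was -0.07 without sheep 48, where that of all genes was -0.01. At an unadjusted p under 0.05, 5 were lower and 1 was higher, and these were 2 and 1 without sheep 48. Over all genes tested, 7.37% were higher at that threshold. MYPN, the gene of myopalladin, which tethers nebulin and alpha-actinin, was 11558 ± 585 in controls and 8567 ± 1831 in treated muscle (SD, n = 5) without overlap, an effect of -0.46 with an adjusted p of 0.241. SYNPO2L, an actin-binding Z-disc protein gene, was 1541 ± 212 and 1207 ± 119, an effect of -0.35 with an adjusted p of 0.253. CSRP3, the gene of muscle LIM protein, lay the other way at 1111 ± 370.5 and 2079 ± 1257, an effect of 0.81 with an adjusted p of 0.279.

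Of 18 other M-band and titin-binding genes, 13 had an effect below 0 and the median was -0.07, near that of all genes. At an unadjusted p under 0.05, 3 were lower and 1 higher, and without sheep 48 none was lower, 1 was higher and the median was -0.02. OBSL1, a relative of obscurin, had 1225 ± 211 in controls and 1851 ± 510 in treated muscle (SD, n = 5), an effect of 0.57 with an adjusted p of 0.214 in limma. SMYD2, a methyltransferase found with titin, had 4125 ± 418 and 3326 ± 558, an effect of -0.32. CMYA5, the gene of myospryn, a large scaffold beside the Z-disc and costamere, had 74087 ± 12431 and 51107 ± 15139, an effect of -0.58 with an adjusted p of 0.326. OBSL1 thus lay on the other side of 0 from MYOM1.

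Of 19 other thin filament and nebulin-linked genes, 14 had an effect below 0, with a median of -0.12. At an unadjusted p under 0.05, 3 were lower and none higher, and without sheep 48 it was 2 lower and 1 higher, with a median of -0.10. TMOD1, the gene of tropomodulin 1, which caps the pointed end of the actin filament, was 2389 ± 304 in controls and 1592 ± 336 in treated muscle (SD, n = 5) without overlap, an effect of -0.60 with an adjusted p of 0.165 in limma. TPM1, an alpha-tropomyosin gene, was 64646 ± 6745 and 46343 ± 6668, again without overlap, an effect of -0.49 with an adjusted p of 0.283. CFL2, the muscle cofilin gene, was 5668 ± 1128 and 4345 ± 1039, an effect of -0.39.

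Of 15 listed thick filament genes, 12 were in the table and tested. Of these, 9 had an effect below 0, and the median of -0.32 was close to that of the 9 members. Under the unadjusted threshold 2 were lower and none higher, and none was so without sheep 48, where the median was -0.29. UNC45B, a myosin chaperone, was 8347 ± 661 in controls and 6738 ± 837 in treated muscle (SD, n = 5), MYBPC2, fast myosin-binding protein C, was 63728 ± 12780 and 42621 ± 13036, and the fast light chain gene MYL1 had means of 59299 and 43069. Their effects were -0.31, -0.63 and -0.45, with adjusted p of 0.308, 0.324 and 0.357 in limma.

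**Figure D4:**
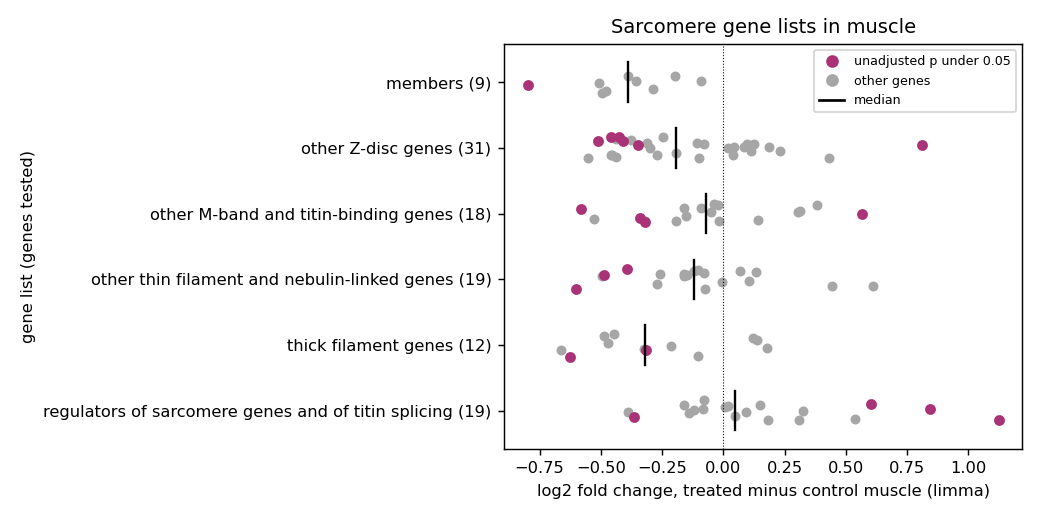
Treatment effect in muscle (log2 difference, treated minus control) of the 9 members and of the genes of 5 fixed lists, one point per gene, with the median as a bar and genes at an unadjusted p under 0.05 in purple. The medians of the members and of the thick filament genes lie lowest, at -0.39 and -0.32, and that of the regulators lies at 0.05.

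The regulators of sarcomere genes and of titin splicing did not share that side. Of 19 tested, 7 had an effect below 0 and the median was 0.05, with 1 lower and 3 higher at an unadjusted p under 0.05. Without sheep 48 none was lower, 3 were higher and the median was 0.13. MYF5, a myogenic factor of muscle precursor cells, was at 15.6 ± 7.87 in controls and 32.8 ± 10.3 in treated muscle (SD, n = 5), an effect of 1.12 with an adjusted p of 0.200 in limma. The 2 myocardin-related cofactors of SRF lay on opposite sides: MRTFB was 649 ± 81.4 and 506 ± 87.0, an effect of -0.36, and MRTFA was 215 ± 64.6 and 329 ± 96.8, an effect of 0.60, with adjusted p of 0.269 and 0.282 in limma.

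Markers of other cells of muscle were set beside these counts. All 3 tested satellite cell markers, genes of the muscle stem cell, had an effect above 0, and their list summed to 19.8 to 122 in controls and 93.4 to 233 in treated muscle. All 6 tested adipocyte markers had an effect below 0, with a median of -1.04 and sums of 1382 to 2851 in controls and 1139 to 2449 in treated muscle. The 7 fibroblast markers had 3 effects below and 4 above 0, with a median of 0.02. The part of these cells in the members' differences was not tested.

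The second comparison read NEB and TTN in liver, where 4 of the 9 members, NEB, TTN, ACTN2 and TCAP, passed the filter of a mean of at least 10. TTN passed it only through the controls, with means of 17.8 in control and 5.41 in treated liver. NEB lay lower in treated liver in every library. It had 37.5, 57.1, 61.4 and 63.4 normalized read counts in control sheep 98, 131, 179 and 201 and 20.05, 15.2, 25.8, 6.42 and 13 in treated sheep 48, 63, 185, 233 and 255. The lowest control, sheep 98, was above the highest treated sheep, 185. The means were 54.9 ± 11.9 (SD, n = 4) and 16.1 ± 7.30 (SD, n = 5), which rest on 248 reads in the 4 control and 74 in the 5 treated libraries.

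The NEB effect in liver was -1.80 ± 0.41 (SE) on the log2 scale, interval -2.69 to -0.92, with an adjusted p of 0.835 in limma. The exact two-sided permutation test of NEB alone gave p = 0.0159, the smallest that 4 against 5 libraries can give, unadjusted. Every treated library lay below every control in 0.682% of the 13640 genes tested. An unadjusted p under 0.05 with a lower treated level was reached by NEB alone of the 4 members and by 2.17% of genes, and 0.00733% of genes were called. NEB, ACTN2 and TCAP had an effect below 0 in limma, as did 49.6% of genes. TTN was below 0 too but is not counted here, since it passed the filter only through its controls. The effect of ACTN2, -0.06, turned to 0.17 in edgeR and 0.19 in DESeq2. That of TCAP, -0.05, turned to as much as 0.24 with 1 library left out. The call of NEB depended on the model: the adjusted p was 0.0233 in DESeq2, which called 0.242% of genes, 0.0290 when both tissues shared 1 limma fit of 19 libraries, and 0.0381 when that fit also carried the sheep as a block, each of which called 0.066%.

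TTN overlapped between the liver groups. Controls had 1.94, 9.68, 17.4 and 42.3, and treated sheep had 2.36, 10.9, 4.12, 2.14 and 7.58. Control sheep 98 was the lowest of all 9 libraries and control sheep 201 the highest. The means were 17.8 ± 17.5 (SD, n = 4) and 5.41 ± 3.75 (SD, n = 5), from 72 and 25 reads, and the control mean was 9.68 without sheep 201. The effect of -1.17 ± 0.76 (SE), interval -2.83 to 0.49, had an adjusted p of 0.999 in limma and an exact permutation p of 0.222. Because TTN was tested only through its control level, and not without control sheep 201, no conclusion is drawn from the direction of this effect. Sheep 201 also had a read for 20704 genes in liver, against 16852 to 18289 in the other liver libraries.

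Of the remaining members, ACTN2 had 32.3 to 62.0 in controls and 9.63 to 89.6 in treated liver, with means of 43.8 ± 13.1 (SD, n = 4) and 49.9 ± 28.5 (SD, n = 5), higher in treated liver on this linear scale. TCAP had 4.98 to 32.0 and 7.58 to 36.1, and both genes overlapped between the groups. The other 5 did not pass the filter. MYOM1 was at 20.03 at most, MYOM2 at 14.5, LDB3 at 21.6 and MYOZ1 at 1.07. ACTA1 gave 16 reads in all 4 control livers and 1 read in all 5 treated ones, with 0, 0.968, 9.12 and 4.45 normalized read counts in controls.

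Because NEB and TTN are muscle genes, other muscle transcripts were read in the same livers. MYH1, a fast myosin heavy chain gene, had 0, 0, 35.7 and 8.90 in controls 98, 131, 179 and 201 and no read in any treated liver, where CKM, the muscle creatine kinase gene, also had none. CKM was at 2.49 and 2.23 in controls 179 and 201 and at 0 in the other two. RYR1 was at 1.94, 5.81, 12.4 and 40.1 in controls and at 1.18, 13.04, 0, 1.07 and 3.25 in treated livers, so its highest library was that of TTN. Control 131 had a NEB level of 57.1 with no read of MYH1 or CKM. The 17 skeletal muscle markers summed to 231 to 386 in control and 163 to 291 in treated liver. Within that sum DES was at 118 to 202 in control and 113 to 207 in treated liver. TNNI2 was at 33.6 to 86.8 and 8.67 to 81.5. Both genes overlapped between the groups, and DES was also on the list of smooth muscle markers. There were 6.73 to 59.0 NEB reads per ACTA1 read in the 4 livers with any ACTA1 read, and 5 livers had none, whereas the quotient was 0.239 to 0.611 in muscle. The part of muscle transcripts in the liver levels was not tested further.

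**Figure D5:**
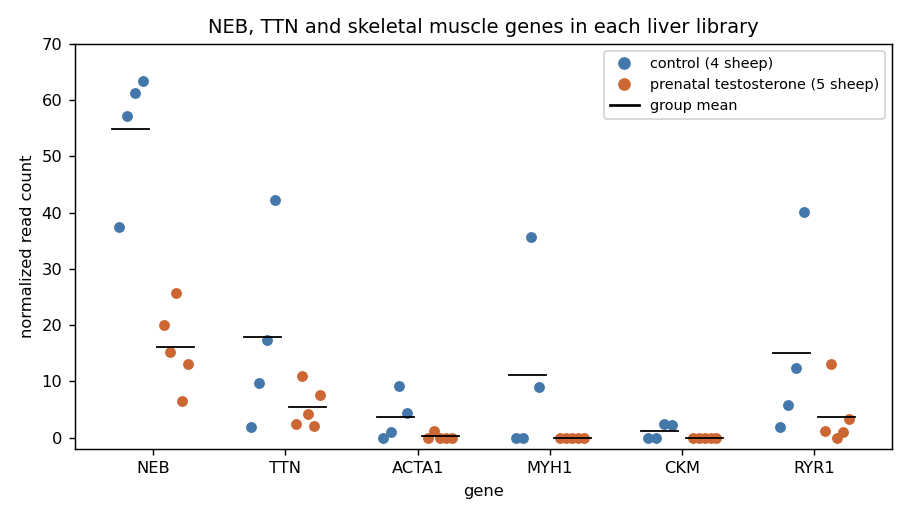
Normalized read counts of NEB, TTN and 4 further skeletal muscle genes in the 4 control and 5 treated liver libraries, with a bar at each group mean. NEB separates the groups (37.5 and above in controls, 25.8 and below in treated livers), while TTN and RYR1 are highest in 1 control library and MYH1 and CKM have reads in 2 control libraries only.

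The genes most like NEB over the 9 liver libraries, among 10394 genes, were LOC101117163, an identifier with no further name used here, at r = 0.961, CANT1, a calcium-activated nucleotidase, at 0.956, and TMEM41A, a transmembrane protein, at 0.920.

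The third comparison set the effect in muscle against the effect in liver in the genes measured in both tissues. For NEB the effect in muscle minus that in liver was 1.295 ± 0.42 (SE), interval 0.41 to 2.18, which lies above 0 because the liver difference was the larger one. It did not pass over all genes, with an adjusted p of 0.836 in limma. For TTN the difference was 0.69 ± 0.71 (SE), interval -0.78 to 2.16, adjusted p 0.973, and for ACTN2 and TCAP it was -0.33 and -0.14. TTN entered this comparison only through its level in control livers. Of the 4 members 1, NEB, was under an unadjusted p of 0.05, against 4.9% of 11697 genes in either direction, and 0.00855% of genes were called. The liver side of the NEB value rests on 6 to 74 reads per library and the muscle side on 43594 to 145752.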

How the data were processed

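Libraries of muscle and liver RNA, 19 from 10 female sheep, were prepared using a TruSeq kit, per the labels. The submitters' processing notes name Trimmomatic, STAR and featureCounts 1.6.1; for build, annotation and strand setting, nothing is given in the sources used here. The signal that the authors deposited is a scaled read count: 100% of values were whole multiples of 1 read (tolerance 0.01 read) with a median-of-ratios scaling within each tissue, so reads could be recovered. Names came from an NCBI table of ARS-UI_Ramb_v3.0 (22250 identifiers by symbol, 406 by gene number, 5868 not found).

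Genes averaging 10 or more in a tissue were tested with limma 3.58.1 (R 4.3.3, trend) after adding 1 and taking log2, a scale that understates changes of low genes, with Benjamini-Hochberg adjustment over all of them and a threshold of 0.05. Each tissue was fitted alone, and the difference between tissues over 19 libraries. Alternatives were edgeR 4.0.16, DESeq2 1.42.0, pseudocounts of 0.25 and 4, other filters and scalings, array weights, 1 fit for both tissues, the sheep as a block, and libraries left out. The sheep number pairs the tissues of 1 animal: deviations from group means correlated at a median of 0.177 (lowest 0.103) within the 9 sheep and -0.0194 between sheep. The 36 pairs of libraries within a group differed beyond sampling noise (lowest chi-square 21.0 per degree of freedom).

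Members and lists were chosen with earlier results of these data known. The text names the members, the 3 genes with the smallest unadjusted muscle p in each other list, and the 3 genes most correlated with TTN or NEB among those averaging at least 50. No sequence table was used here.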

Additional observations from a re-analysis of the deposited data

How the results depend on the processing

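In muscle, 186 of 189 member effects under 21 alternative settings kept their direction and their side of the threshold. The exceptions were MYOM1, called by DESeq2 at -0.76 (adjusted p 0.0332), and MYOZ1 and TCAP, at 0.11 and 0.0080 with libraries scaled to their totals. Members lower at an unadjusted p under 0.05 went from 1 to 5 in DESeq2 (921 of 12966 genes were so there) and were 1 to 2 with each library left out (2 without treated sheep 233). Genes called in muscle went from 1 to 0 with a pseudocount of 0.25 or a mean of at least 50, 80 (1 lower) with total scaling and 240 (95 lower) with DESeq2, and were 0 to 4 with each library left out. Genes lower at an unadjusted p under 0.05 in muscle went from 907 to 146 with total scaling, 386 in 1 fit of 19 libraries and 383 with the sheep as a block.

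In liver, NEB was called at -1.77 by DESeq2, -1.80 in 1 fit of 19 libraries and -1.80 with the sheep as a block. Genes called went from 1 to 0 with a mean of at least 50, 2 with array weights, 33 with DESeq2, and 9 in 1 fit without or with the block. Genes lower at an unadjusted p under 0.05 went from 296 to 665 without a filter, 826 with array weights, 509 in 1 fit, 496 with the block, and 195 without control sheep 98 to 613 without control sheep 179. The ACTN2 effect in liver turned to 0.17 in edgeR and 0.19 in DESeq2, and ranged from -0.33 to 0.44 with each library left out, that of TCAP from -0.64 to 0.24. With a mean of at least 50, no member gave a value in liver or for the difference between tissues, and TTN gave none in liver without control sheep 201.

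Genes called for the difference between tissues went from 1 to 0 with a pseudocount of 4 or no filter and to 3 with array weights, and were 0 to 1 with each sheep left out. The replicate block gave 1.28 for NEB (adjusted p 0.589) and 0.68 for TTN (adjusted p 0.898) and changed no other call. The cause of these changes was not tested. Depth limits the liver values of NEB and TTN, which rest on 248 and 72 reads in the controls and 74 and 25 in treated livers, and in 22 groups of member values no library, sheep 48 included, passed Dixon's 95% criterion for a value apart from its group.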
